A study of Mus musculus with 12 samples.

Results

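The difference in gene expression between coronary and endocardial endothelial cells of the mouse heart was measured at 2 embryonic stages, and the genes described here are those in which that difference itself changed. For each gene the change is the coronary minus endocardial log2 fold change at E17 less the same value at E13, estimated over all 12 libraries of the series. Of 41214 genes in the table, 15171 had enough counts to be tested and 4962 passed (32.7% of those tested, edgeR quasi-likelihood test, Benjamini-Hochberg adjusted p under 0.05). A positive change means that expression moved towards the coronary cells at E17, and a negative one that it moved towards the endocardial cells. Values after ± are standard errors of the fit for log2 changes, and levels are TMM-scaled CPM. The change was positive in 2465 genes (16.2% of those tested) and negative in 2497 (16.5%).

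Endothelial cells came from ventricles freed of atria and the aortic region, and bulk RNA of sorted populations was sequenced, with 4 endocardial and 4 coronary libraries at E13 and 2 of each at E17. All embryos carried 1 copy of the transgene Nes-gfp, in which regulatory sequence of nestin drives green fluorescent protein (GFP), and the E17 embryos also carried Nes-CreER, a tamoxifen-activated Cre recombinase, and 1 R26 tom reporter allele, after a tamoxifen dose of 0.1 ug on day E15.5. Live Ter119- CD45- CD31+ cells were taken as endocardial when GFP-low and Emcn-high at E13 and when GFP+ at E17, and as coronary when GFP+ at E13 and when GFP+ and Emcn-low at E17. For E17 the study describes an arterial and capillary (Tomato+) and a venous (Tomato-, GFP-low) coronary gate, and which gate the E17 coronary libraries came from is not stated. The batch labels are 1 to 4 at E13 and 5 and 6 at E17, each with 1 library of both populations. Stage, genotype, tamoxifen, gate and batch therefore change together between E13 and E17 and cannot be told apart. The labels give stages as E13 and E17, and the design text as E13.5 and E17.5. In bulk RNA, fewer cells of a type and less RNA per cell cannot be told apart either. Whether replicates came from different litters is not given, and a p-value then reflects only how these libraries vary.

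The endocardium lines the chambers of the heart and, early in development, gives rise to valve mesenchyme and to part of the coronary vessels. The coronary plexus starts as an immature network that grows through the ventricular wall and later matures into arteries, veins and capillaries that supply fatty acids and oxygen to muscle. Both populations are thus related endothelia that take on different functions as the heart grows.

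Library totals lay between 14973633 and 27360653 expected counts. The pan-endothelial marker list summed to 9200, 7480, 6870 and 7920 CPM in the E13 coronary libraries and to 13100 and 14800 CPM in the E17 coronary libraries, against 11900, 11100, 11800 and 12400 CPM and 12600 and 13500 CPM in the endocardial ones. Of the genes of the sort, Nes widened in favour of coronary cells (change 1.14 ± 0.13 with an edgeR adjusted p of 4.19e-05), Pecam1 (CD31) moved towards coronary cells (change 0.65 ± 0.16 with an edgeR adjusted p of 0.00954, and of 0.0597 without E17 coronary replicate 2), and Emcn missed the threshold (change -0.45 ± 0.17 with an edgeR adjusted p of 0.057, and of 0.0243 with the batch as a block). Ptprc (CD45) had a total count of 21 over the 12 libraries and was not tested. The fibroblast sum leaves out Fn1, the fibronectin gene, after its values were seen, since Fn1 was higher in endocardial cells and outweighed the rest there (13740, 4268, 7677 and 1513 CPM for endocardial and coronary cells at E13 and then at E17). The other 10 fibroblast markers summed to 2110, 4200, 5580 and 3860 CPM in E13 coronary replicates 1 to 4. Replicate 1 was lowest and replicate 3 highest, an order shared by Adamtsl4, Bmp4, Bmp6, Cdh11, Col1a2, Cthrc1, Dcn, Dkk3, Dsp, Eln, Erbb3, Fbln5, Grb10, Hand2, Ltbp1, Lum, Notch3, Pla2g4a, Prss35, Sema3a, Slit3, Tgfb2, Tnni1, Vcam1 and Vcan among the genes with a value in every library that are named below. That sum was 3840 and 1730 CPM in E17 coronary libraries, and 1330, 1220, 1480 and 1350 CPM and 1320 and 1190 CPM in E13 and E17 endocardial libraries.

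Genes whose change passed were sorted by what the difference did. It counted as reversed where both stages passed the test with opposite signs and at least 0.5 in log2 each, as appeared where E17 passed with at least 1 and E13 was under 0.5, and as vanished where E13 passed with at least 1 and E17 was under 0.5. Widened and narrowed genes passed at both stages with the same sign and grew or shrank. There were 285 reversed, 628 appeared, 266 vanished, 1337 widened and 274 narrowed genes, and 2172 called genes met none of these definitions. For the background, the population difference itself passed in 60% of genes at E13 and in 52.6% at E17, and the E17 minus E13 difference passed in 50.1% of genes in coronary libraries and in 31.8% in endocardial libraries. Among reversed genes, 225 went from higher in coronary to higher in endocardial cells and 60 the other way. That split rests on the size asked for, since by the tests alone, without a minimum size, 335 genes reversed towards endocardial and 328 towards coronary cells. Among appeared genes, 379 became higher in endocardial and 249 in coronary cells, and among vanished genes 189 had been higher in coronary and 77 in endocardial cells. By the tests alone these were 622 and 669, and 598 and 557. Changes of at least 2-fold were more often negative (1433 genes) than positive (613). The batch block kept 4575 of the 4962 calls, with the same sign in each. Genes named below for the size of their change in a class had to pass with the block as well. Their populations also had to lie apart at the stage or stages that hold the difference. For such genes a lack of overlap follows from the choice and adds no support. The plot of the difference at E17 against that at E13 shows these classes as separate sectors.

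**Figure D1:**
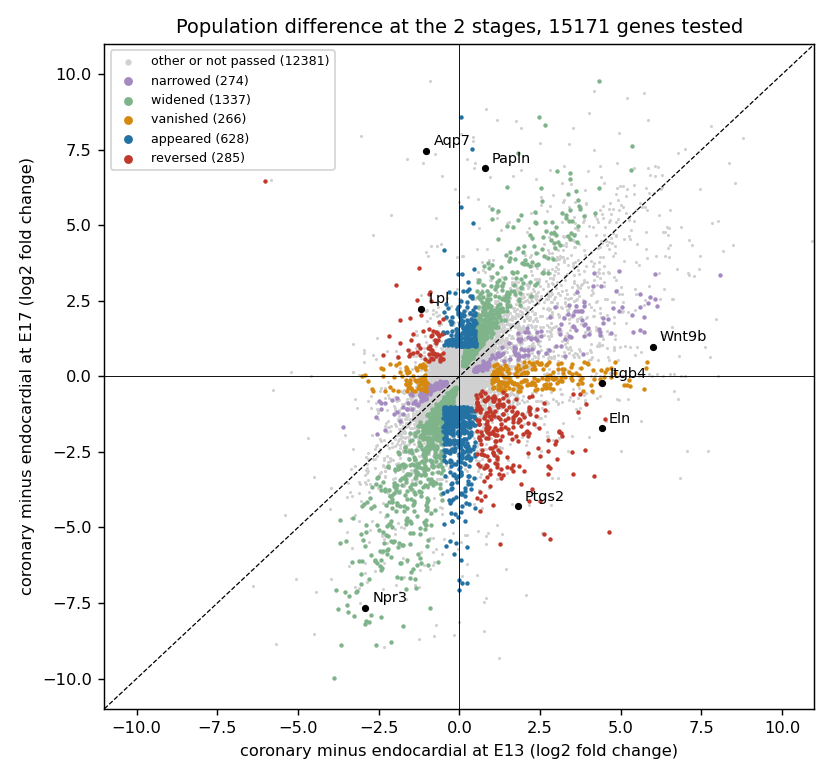
Each point is 1 of 15171 genes, with the coronary minus endocardial log2 fold change at E13 on the horizontal and at E17 on the vertical axis. The 285 reversed genes lie in the upper left and lower right quadrants, 225 of them in the lower right, and the dashed diagonal marks no change.

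The thresholds cut through a continuum. Pigb passed with an adjusted p of 0.0499 and a change of -0.42, and Fgd4 missed with 0.05 and -0.41 (edgeR). Lrrc8c, with E13 and E17 differences of 0.31 and 1.0, counted as appeared, and Clic4, whose 0.30 and 1.0 are rounded up to that size, did not. Ptgfrn (0.70 and -0.50) lay just inside the reversed class and Arxes1 (-0.50 and 1.48) just outside it, among the appeared genes. Cacna1b (-1.0 and 0.50) lay just inside the vanished class on both sizes, and Ttc39b (-1.0 and 0.47) and Mthfd2 (1.39 and 0.50) just outside it.

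By construction the change equals the stage change of the coronary cells less that of the endocardial cells, so the same values show which population moved. The coronary level moved more than the endocardial level in 72.0% of the called genes, against 62.0% of all genes tested. In the 225 genes that reversed towards endocardial cells the median stage change was -2.28 in coronary and 1.03 in endocardial libraries, and 112 of them passed in both populations with opposite signs. In the 60 that reversed towards coronary cells the medians were 1.92 and -0.14, so that this class moved mostly on the coronary side. The 77 genes whose endocardial excess vanished had medians of 1.26 and -0.11, and the 189 whose coronary excess vanished -1.63 and 0.62.

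**Figure D2:**
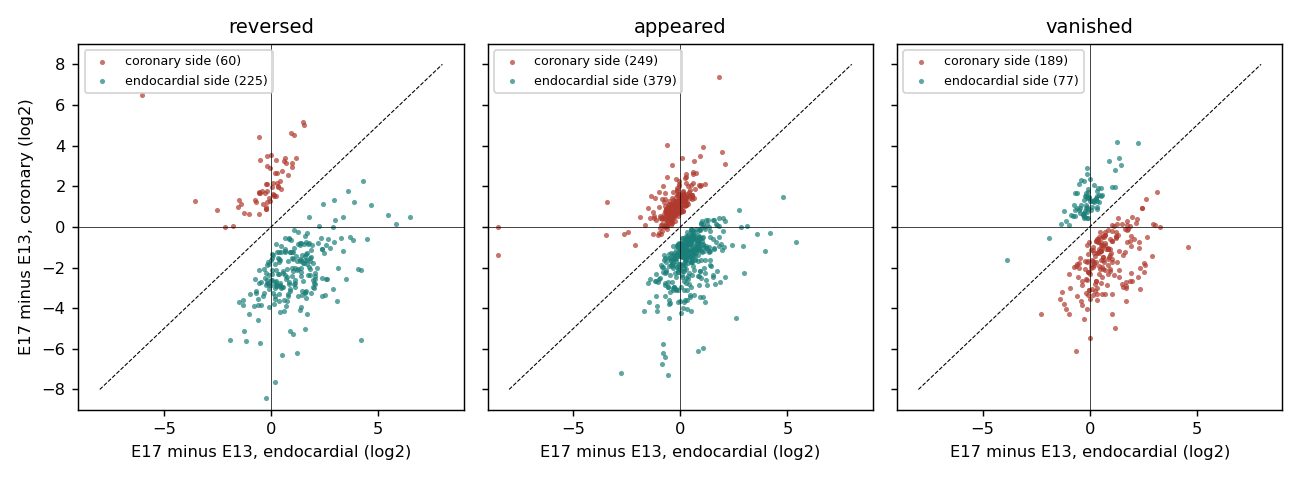
Each point is 1 gene of the reversed, appeared or vanished class, with its E17 minus E13 log2 fold change in endocardial libraries on the horizontal and in coronary libraries on the vertical axis. The coronary level moved more than the endocardial level in 74.7% of reversed, 78.0% of appeared and 75.9% of vanished genes, seen as a spread that is taller than wide, and the dashed line marks equal change.

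Elastic fibre genes moved mostly towards endocardial cells, and Eln among them reversed. Eln, which encodes tropoelastin, the core of elastic fibres, spans chr5:134702593-134747323 (GRCm38). It measured 83.4, 54.04, 69.02 and 66.1 CPM in the E13 endocardial libraries and 1053, 1568, 1757 and 1405 CPM in the E13 coronary libraries. At E17 it measured 1057 and 1194 CPM in endocardial and 354 and 336 CPM in coronary libraries. Every coronary library was above every endocardial one at E13 and below both at E17, so the groups did not overlap at either stage. The difference went from 4.41 to -1.71, a change of -6.11 ± 0.28 with an edgeR adjusted p of 9.67e-08. Between stages the coronary level fell by 2.07 and the endocardial level rose by 4.04 on the log2 scale. Of 25 elastic fibre and ADAMTS-like genes, 14 changed towards endocardial cells and 3 towards coronary cells, with a median change of -1.36 against 0.00 over all genes tested, and 8 did not pass. In E13 coronary replicates 1 to 4 the list summed to 4960, 6880, 7780 and 6330 CPM, lowest in replicate 1 and highest in replicate 3 like Eln and the fibroblast sum, and the part of other cells was not tested. Fbln2, a fibulin of the outflow and valve matrix, stood at 369.6, 797, 1359 and 356 CPM for endocardial and coronary cells at E13 and then at E17, and reversed with a change of -3.04 ± 0.29. Efemp1, another fibulin, reversed as well (0.749, 3.999, 2.02 and 0.385 CPM, change -4.79 ± 0.70). Fbln5, which helps elastin assemble, kept a coronary excess that narrowed from 5.72 to 1.46. The microfibril gene Mfap2 was even at E13 (0.02) and endocardial at E17 (-2.33), and Adamtsl4, a microfibril-binding glycoprotein, widened from -0.54 to -4.09.

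The matrix genes Vcan, Lum and Dcn and the netrin gene Ntn4 reversed in the same direction as Eln. Vcan, the large proteoglycan versican of the cardiac jelly, measured 192, 158, 161 and 164 CPM in endocardial and 852, 1497, 1670 and 1307 CPM in coronary libraries at E13, and 642 and 573 against 173 and 105 CPM at E17. Its E13 coronary libraries were all above, and its E17 coronary libraries both below, the endocardial libraries of their stage (change -5.11 ± 0.35 with an edgeR adjusted p of 1.06e-06). Ntn4, a netrin found in basement membranes, stood at 6.42, 50.1, 40.1 and 8.42 CPM in the same order of groups (change -5.20 ± 0.34). The small proteoglycan genes Lum and Dcn changed by -6.32 ± 0.62 and -4.87 ± 0.46, and in both the E17 endocardial mean (120.1 and 131 CPM) was above the E13 one (6.404 and 2.94 CPM). Both are also fibroblast markers. Of the 11 fibroblast genes on the list, 5, Fn1 among them, changed towards endocardial cells and 6 did not pass, Col1a1 among them (change -0.74 ± 0.70). Without E17 endocardial replicate 1 or E17 coronary replicate 2 that count was 3, with Fn1 (edgeR adjusted p = 0.096 and 0.122) and Col1a2 no longer past the threshold. Towards coronary cells, 1 fibroblast gene passed with the batch block and 1 without E13 coronary replicate 3. In endocardial libraries the sum of the 10 markers without Fn1 overlapped between stages, at 1220 to 1480 CPM at E13 and 1320 and 1190 CPM at E17. In E13 coronary replicates 1 to 4 Lum measured 36.6, 114, 142 and 84.7 CPM, lowest in replicate 1 and highest in replicate 3 like the fibroblast sum, and the part of other cells in these results was not tested. Of the 103 reversed genes on the endocardial side that reached 10 CPM in E13 coronary cells, 18 had at least 2 times the level in replicate 3 that they had in replicate 1, a gap seen in 2.64% of all tested genes at that level. Leaving out replicate 1 or 3 gave 265 and 216 such reversals in place of 225.

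Of 17 tested genes of prostaglandin synthesis and response, 3 for synthesis changed towards endocardial cells, 4 for transport, breakdown and response changed towards coronary cells, and 10 did not pass. Over all genes tested, 16.2% changed towards coronary and 16.5% towards endocardial cells, and this list lay near those shares. Its grouping by function was made with the directions known. Ptgs2 encodes cyclooxygenase-2, the inducible enzyme that commits arachidonic acid to prostaglandins, and lies at chr1:150100031-150108227. Its levels were 1.65, 1.06, 1.05 and 1.07 CPM in endocardial and 3.57, 5.85, 4.49 and 3.15 CPM in coronary libraries at E13, then 13.4 and 14.8 CPM in E17 endocardial and 0.9601 and 0.479 CPM in E17 coronary libraries. The populations did not overlap at either stage, and the difference turned from 1.8 to -4.30 (change -6.10 ± 0.46 with an edgeR adjusted p of 2.08e-06). Pla2g4a, the phospholipase that releases arachidonic acid, appeared on the endocardial side (-0.47 to -4.88), and Ptgis, prostacyclin synthase, reversed (2.17 to -1.0). Towards coronary cells moved Hpgd, the enzyme that inactivates prostaglandins (2.20 to 4.68), the prostanoid exporter gene Abcc4 (2.02 to 3.33) and the thromboxane receptor gene Tbxa2r (-0.13 to 2.76). Ptges3, a prostaglandin E synthase and the highest in CPM, averaged over the 4 groups, of those that did not pass, had a change of -0.07 ± 0.10. Edn1, the vasoconstrictor endothelin-1, measured 37.7, 33.3, 30.1 and 32.2 against 57.3, 58.2, 46.2 and 49.5 CPM in E13 endocardial and coronary libraries and 92.7 and 110.3 against 15.8 and 18.6 CPM at E17. It rose in endocardial and fell in coronary cells, and its small coronary excess at E13 reversed (change -3.22 ± 0.17 with an edgeR adjusted p of 2.08e-07).

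**Figure D3:**
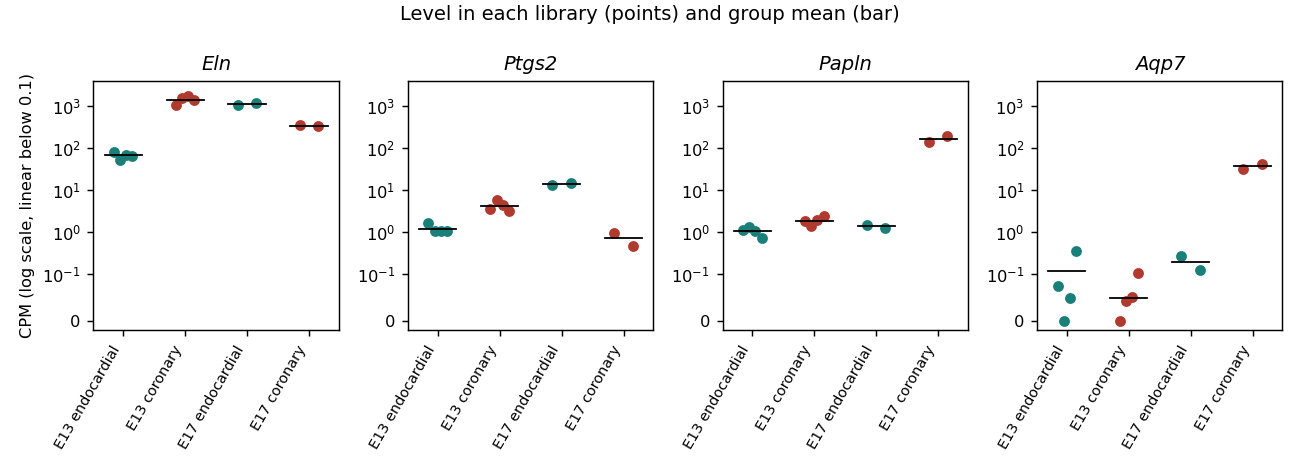
Points are the levels of Eln, Ptgs2, Papln and Aqp7 in each of the 12 libraries, on a log axis in CPM that is linear below 0.1, and bars are group means (n = 4 at E13, n = 2 at E17). Eln and Ptgs2 cross over between stages, whereas Papln and Aqp7 stand out in the 2 E17 coronary libraries.

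Papln and Aqp7 were low in both populations at E13 and high in coronary cells alone at E17. Papln, an ADAMTS-like matrix glycoprotein at chr12:83763634-83792382, measured 1.13, 1.34, 1.099 and 0.714 CPM in endocardial and 1.84, 1.39, 1.97 and 2.4 CPM in coronary libraries at E13. At E17 it measured 1.53 and 1.296 CPM in endocardial libraries and 142 and 194 CPM in coronary libraries, a widening from 0.78 to 6.88 (change 6.10 ± 0.36 with an edgeR adjusted p of 3.79e-07). Aqp7, the channel that carries glycerol across membranes, lies at chr4:41033074-41048139 and was near 0 in 3 of the groups: 0.0752, 0, 0.04998 and 0.357 CPM in endocardial and 0, 0.0433, 0.0504 and 0.107 CPM in coronary libraries at E13, and 0.273 and 0.1296 CPM in endocardial libraries at E17. The E17 coronary libraries held 32.1 and 43.2 CPM, more than any other library, and the change was 8.49 ± 1.26 with an edgeR adjusted p of 0.000296. The E13 groups of Aqp7 summed to 9 and 4 counts, and the standard error of its change was the largest of the 4 genes Eln, Ptgs2, Papln and Aqp7.

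Of 18 genes on the list of heart capillary and lipid uptake, which Aqp7 belongs to, 10 with Aqp7 changed towards coronary and 3 towards endocardial cells and 5 did not pass, with a median change of 1.90. Lpl, lipoprotein lipase, which frees fatty acids at the capillary wall, measured 50.96, 41.5, 43.2 and 41.9 CPM in E13 endocardial, 21.5, 16.8, 20.4 and 19.1 in E13 coronary, 104 and 85.6 in E17 endocardial and 339 and 557 CPM in E17 coronary libraries. It was lower in each coronary library at E13 and higher in each at E17, without overlap, and it rose between stages in both populations (change 3.44 ± 0.25 with an edgeR adjusted p of 1.5e-06). Cd300lg, a receptor-like glycoprotein of capillary endothelium, reversed in the same way (-1.52 to 1.94). Gpihbp1, which anchors lipoprotein lipase on the capillary surface, was coronary at both stages and widened (2.33 to 5.10), as did the regulator genes Pparg (0.76 to 3.65) and Tcf15 (1.16 to 3.14), the monoacylglycerol lipase gene Mgll (2.37 to 4.08) and Car4, a carbonic anhydrase of the capillary lumen (2.64 to 8.31). Endocardial libraries averaged 0.729 CPM of Car4 at E13 and 0.0921 CPM at E17, so the size of its differences is uncertain. Timp4, a metalloproteinase inhibitor, appeared (0.04 to 5.60). Fabp4, a fatty acid carrier and the highest in CPM, averaged over the 4 groups, of those that did not pass, rose in both populations with differences of this size at both stages (5.25 to 5.28, change 0.03 ± 0.52). Slc27a3, of a family that activates fatty acids, moved the other way (-1.58 ± 0.24).

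Many interferon-stimulated genes, which cells induce against viruses and, at a low tonic level, without infection, were endocardial at E13 and lost or turned that bias at E17. Of 24 interferon and MHC class I genes, 16 changed towards coronary cells and 1, H2-T23 (-1.35), towards endocardial cells, and 7 did not pass. The median difference of the list went from -0.97 at E13 to 0.28 at E17. Tap2, a subunit of the peptide transporter that loads MHC class I, measured 8.08, 7.59, 7.696 and 7.79 CPM in E13 endocardial, 5.63, 3.42, 4.03 and 3.84 in E13 coronary, 17.2 and 17.7 in E17 endocardial and 43.5 and 45.6 CPM in E17 coronary libraries. Coronary libraries were thus lowest at E13 and highest at E17, without overlap (change 2.24 ± 0.21 with an edgeR adjusted p of 8.21e-06). Irf7, the transcription factor that amplifies interferon responses, also reversed (-2.36 to 0.71, change 3.07 ± 0.31 with an edgeR adjusted p of 1.5e-05), as did Psmb8, a subunit of the immunoproteasome (-1.83 to 1.86). Levels were low at E13, with Irf7 at 0.853 to 1.24 CPM in coronary and Psmb8 at 0.238 to 0.769 CPM in endocardial libraries. Outside the list, Ly6e, a surface protein that restricts viral entry, reversed from -0.91 to 2.78 and reached 455 and 497 CPM in E17 coronary libraries. The RNA sensor gene Ifih1 (-1.58 to 0.87) and the genes Slfn5 (-1.56 to 0.68), Irgm1 (-0.97 to 0.94) and Mndal (-1.95 to 3.03), all known to respond to interferon, reversed as well. Ifitm1, of an interferon-induced family, reversed the other way (3.15 to -1.88). Gbp2 (-2.31 to -0.88), Igtp (-2.42 to -0.87) and Irgm2 (-2.44 to -1.07) narrowed but stayed endocardial at E17. The genes outside the list were chosen with their values known. In Irf9, a transcription factor gene of the interferon response (-1.11 to -0.05), and in Isg15 (-2.44 to 0.27), Bst2 (-1.49 to -0.40), Tap1 (-1.36 to 0.28) and Ifi35 (-1.06 to 0.35), the endocardial excess vanished. Genes of the Gbp, Irg, Trim, Ly6 and H2 families have near copies between which the authors' counting divides reads, so their single values are uncertain.

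Promoters were read for the core of the interferon-stimulated response element, GAAANNGAAA, on both strands, in RefSeq windows from 250 bases before to 50 after each gene's start (build GRCm38.p6). It was present in 19.5% of the 41 genes with a window among the 60 that reversed towards coronary cells (8 genes) and in 26.8% of the 56 with a window among the 77 whose endocardial excess vanished (15 genes). The share was 3.61% of all 11132 tested genes with a window, 3.61% of those that reversed towards endocardial cells and 3.85% of those whose coronary excess vanished. Of the interferon and MHC class I list, 9 of 22 members with a window held it (40.9%), and 5 of the 14 whose change towards coronary cells passed (35.7%). The 250 bases before the start of 4 of these genes are shown to place the motif, each read 5′ to 3′ along the strand of its gene, with matches in capitals and matching stretches that overlap written as 1 run. They are Isg15 (chr4:156200819-156201068, minus strand), with 3 overlapping matches, Bst2 (chr8:71537473-71537722, minus strand), with 2, Mndal (chr1:173880188-173880437, minus strand) and Gbp7 (chr3:142530086-142530335, plus strand), whose match lies on the opposite strand and reads as its reverse complement. Mndal has another window, not shown (chr1:173879959-173880208 before its start), with 1 match on the opposite strand.
Isg15: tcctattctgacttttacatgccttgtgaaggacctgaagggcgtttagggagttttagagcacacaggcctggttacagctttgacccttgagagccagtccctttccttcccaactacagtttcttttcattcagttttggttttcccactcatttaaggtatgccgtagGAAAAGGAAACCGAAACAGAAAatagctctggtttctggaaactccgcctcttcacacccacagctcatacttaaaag
Bst2: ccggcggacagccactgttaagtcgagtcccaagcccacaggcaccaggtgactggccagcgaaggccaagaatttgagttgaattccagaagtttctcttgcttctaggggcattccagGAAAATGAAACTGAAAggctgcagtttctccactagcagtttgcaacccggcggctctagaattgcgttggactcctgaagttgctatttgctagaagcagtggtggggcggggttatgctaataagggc
Mndal: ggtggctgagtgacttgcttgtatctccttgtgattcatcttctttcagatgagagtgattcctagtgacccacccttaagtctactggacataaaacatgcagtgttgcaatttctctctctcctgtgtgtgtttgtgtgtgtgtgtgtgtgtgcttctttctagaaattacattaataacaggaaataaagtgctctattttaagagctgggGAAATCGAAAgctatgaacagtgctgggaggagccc
Gbp7: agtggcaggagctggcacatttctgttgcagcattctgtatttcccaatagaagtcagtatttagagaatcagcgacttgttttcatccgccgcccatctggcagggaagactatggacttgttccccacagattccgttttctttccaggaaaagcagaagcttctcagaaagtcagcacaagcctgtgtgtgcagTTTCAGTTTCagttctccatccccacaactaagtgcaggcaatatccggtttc
A match describes these letters only.

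Several feedback targets of canonical Wnt signalling, which beta-catenin induces and which dampen the pathway, were coronary at E13 and endocardial or even at E17. Of 18 Wnt targets and ligands, 11 changed towards endocardial and 4 towards coronary cells and 3 did not pass. Nkd1, an inhibitor that acts on Dishevelled, measured 16.9, 14.3, 16.1 and 13.7 CPM in E13 endocardial, 55.8, 69.7, 66.6 and 72.1 in E13 coronary, 32.8 and 22.04 in E17 endocardial and 9.12 and 9.94 CPM in E17 coronary libraries. The populations did not overlap at either stage and their order turned (change -3.64 ± 0.22 with an edgeR adjusted p of 5.12e-07). Axin2, a scaffold of the beta-catenin destruction complex, went from 2.38 to -1.3, and Notum, the enzyme that strips Wnt proteins of their lipid, from 4.17 to -3.29. Both fell in coronary cells, as did Nkd1 and the nuclear partner of beta-catenin, Lef1, whose coronary excess vanished (4.16 to -0.08). It also vanished for the ligand gene Wnt4 (2.06 to -0.13) and for Dkk3 (4.82 to 0.46), which followed the order of the fibroblast sum in E13 coronary replicates, and narrowed for the ligand gene Wnt9b (5.99 to 0.98, from 150.1 ± 33.6 CPM, SD, n = 4, to 15.1 ± 0.453 CPM, SD, n = 2, in coronary libraries). Among the 4 that moved towards coronary cells were the cyclin gene Ccnd1 (-0.24 to 1.5) and the receptor gene Fzd4 (0.28 to 1.11). The ligand genes Wnt11 and Wnt2, named for the size of their change, appeared on the endocardial side, Wnt2 from 0.05 to -4.48. Wnt11 was even at E13, at 38.6, 40.7, 36.2 and 36.1 against 34.5, 37.8, 36.6 and 39.9 CPM, where the populations overlapped, and measured 49.5 and 57.2 against 2.4 and 1.86 CPM at E17 (change -4.63 ± 0.15 with an edgeR adjusted p of 8.49e-09).

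**Figure D4:**
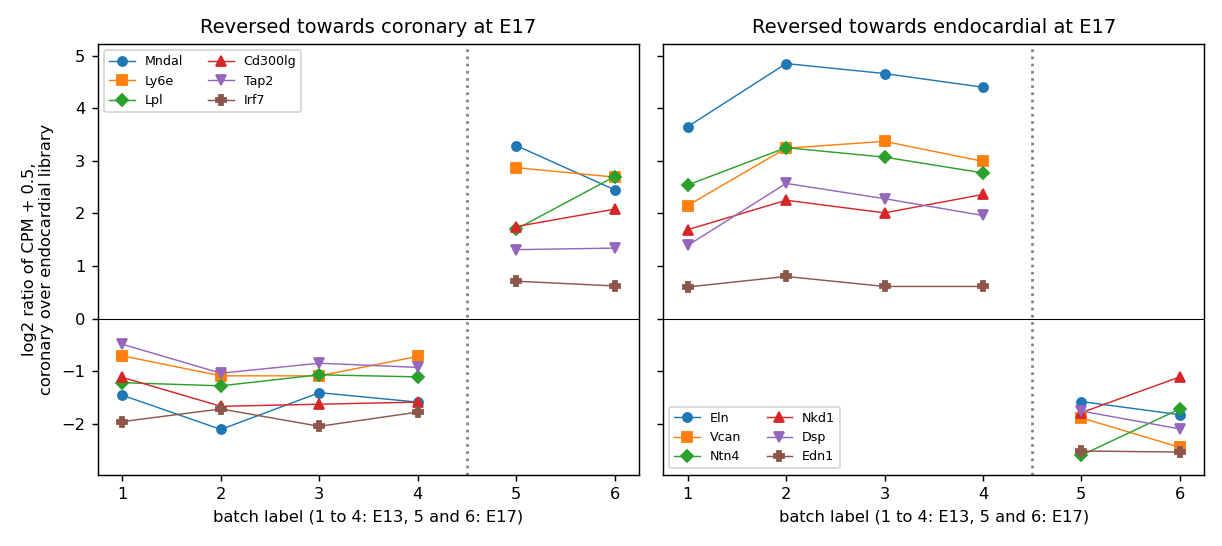
Lines join the log2 ratio of CPM + 0.5, coronary over endocardial library, within each batch label for 6 genes that reversed towards coronary (left) and 6 towards endocardial cells (right). The genes were chosen among those whose populations do not overlap at either stage, which fixes 1 sign for batches 1 to 4 (E13) and the other for batches 5 and 6 (E17), so the plot shows only the size of the ratios.

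Of 15 genes on the endocardial identity list, 14 changed towards endocardial cells and 1, Tie1 (0.48), towards coronary cells. The median stage change was -2.96 in coronary and 0.13 in endocardial libraries. Like the other lists, this list was chosen with earlier results of these data known, so the count adds no independent support. Npr3, the natriuretic peptide clearance receptor, measured 1728, 1589, 1688 and 1715 CPM in endocardial and 185, 168, 292 and 249 CPM in coronary libraries at E13, then 2223 and 2406 against 11.5 and 11.6 CPM at E17. Endocardial libraries were above coronary ones at both stages, and the widening came with a fall in coronary cells (change -4.74 ± 0.27 with an edgeR adjusted p of 2.91e-07). The cadherin gene Cdh11 (-2.03 to -5.44), the transcription factor gene Hand2 (-0.75 to -4.41) and Nrg1, the neuregulin that signals to heart muscle (-1.01 to -5.60), widened likewise. For the cardiac transcription factor genes Gata4 (0.15 to -2.51), Gata5 (-0.17 to -3.23) and Gata6 (-0.34 to -2.20) and the valve regulator gene Nfatc1 (0.10 to -1.01), an endocardial excess appeared. Gata4 stood at 231, 256, 188 and 32.9 CPM for endocardial and coronary cells at E13 and then at E17, and its coronary level fell. Bmp6, a bone morphogenetic protein, reversed from a small coronary excess (0.70 to -2.56, change -3.26 ± 0.24 with an edgeR adjusted p of 1.88e-06). The T-box factor gene Tbx20 was coronary at E13 and narrowed (3.80 to 1.85), and the coronary excess of Hapln1, which links hyaluronan to versican, vanished (1.74 to -0.26). Among genes named for the size of their change, Cytl1, which encodes a secreted cytokine-like protein, measured 24.5, 16.1, 19.99 and 22.6 against 19.04, 12.4, 14.02 and 17.8 CPM at E13, where the ranges overlapped although the coronary library was the lower in each of the 4 batches, and 160.1 and 166 against 3.98 and 2.69 CPM at E17 (change -5.22 ± 0.30 with an edgeR adjusted p of 3.39e-07). Slit3, a guidance ligand for Robo receptors, appeared in the same way (-0.28 to -5.44). Plvap, the diaphragm protein of fenestrated endothelium, widened from -2.44 to -6.40.

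Most basement membrane and general endothelial genes moved towards coronary cells. Of 15 basement membrane genes 11 changed in that direction and 2, the laminin chain gene Lama5 among them (-1.63), in the other. Col4a1, a chain of the collagen IV network, measured 6216, 5596, 5941 and 6480 against 5438, 4079, 3839 and 4584 CPM in E13 endocardial and coronary libraries and 5930 and 7361 against 10080 and 12190 CPM at E17. Coronary libraries were below the endocardial ones at E13 and above them at E17 (change 1.18 ± 0.19 with an edgeR adjusted p of 0.000525), and its partner chain gene Col4a2 changed by 1.26 ± 0.18. Nid2, the linker nidogen-2, widened from 2.76 to 3.91. Of 14 pan-endothelial genes 10 changed towards coronary and 1, Tek (-0.49), towards endocardial cells, beside the list sums given above, which were lowest in E13 coronary libraries. The part of endothelial content in this result was not tested. Kdr, the main VEGF receptor, measured 1195, 1120, 1197 and 1265 against 1239, 932, 811 and 951 CPM at E13 and 681 and 752 against 2327 and 2770 CPM at E17. The populations overlapped at E13 and were apart at E17, after a rise in coronary and a fall in endocardial cells (change 2.11 ± 0.19 with an edgeR adjusted p of 7.47e-06). Cdh5, the junctional VE-cadherin (-0.23 to 1.05), Esam, an adhesion molecule of the same junctions (-0.07 to 1.16), and the Ets factor gene Fli1 (0.09 to 1.43) also appeared. Of the tight junction genes, Tjp1 (0.21 to 1.41) appeared and Cldn5 (3.74 to 5.54) widened in favour of coronary cells. Lgals3bp, a secreted glycoprotein named for the size of its change, measured 68.8 and 77.99 CPM in E17 coronary libraries and between 5.53 and 8.76 CPM in the other 10 (change 3.32 ± 0.21 with an edgeR adjusted p of 5.5e-07).

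Arterial and venous genes each split. Of 18 arterial genes 9 changed towards coronary and 3 towards endocardial cells, and of 13 venous genes 4 and 5. Without E17 endocardial replicate 2 the arterial count towards coronary cells was 5, and without replicate 1 the venous one was 2. Sema3g, an arterial semaphorin, measured 4.81, 7.06, 5.75 and 6.24 against 98.5, 73.4, 59.2 and 73.7 CPM at E13 and 2.67 and 3.18 against 156 and 176 CPM at E17, without overlap at either stage (change 2.15 ± 0.31 with an edgeR adjusted p of 0.000228). The Notch ligand genes Jag2 (3.85 to 5.30) and Dll4 (0.79 to 1.73) and the Notch target gene Hey1 (0.81 to 1.87) widened. Hey2, another Notch target of arteries, fell in coronary cells and narrowed (4.36 to 1.46, change -2.91 ± 0.29 with an edgeR adjusted p of 1.4e-05), and the coronary excess of the ligand gene Jag1 vanished (1.26 to 0.32). Of the venous genes, the apelin receptor gene Aplnr widened (3.00 to 4.69), with 607 and 614 CPM in the E17 coronary libraries. The adhesion genes Vcam1 (1.75 to -1.97) and Selp (1.3 to -1.56) reversed towards endocardial cells. Selp was low at E13, at 0.635 CPM in endocardial and 1.59 CPM in coronary cells. Vwf, the platelet-binding von Willebrand factor, widened in favour of endocardial cells (-1.71 to -3.37).

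Ligands and receptors of vessel growth also divided. Of 16 VEGF and angiopoietin genes 7 changed towards coronary and 5 towards endocardial cells. Angpt2, the ligand that destabilises vessels through the Tie2 receptor, measured 2.48, 1.87, 2.199 and 2.2 CPM in endocardial and 6.599, 5.07, 4.39 and 6.19 CPM in coronary libraries at E13, then 23.4 and 30.1 against 17.97 and 19.3 CPM at E17. It rose in both populations, more in the endocardial one, so that its order turned (change -1.86 ± 0.24 with an edgeR adjusted p of 0.000122). The angiopoietin-like gene Angptl2 reversed with it (1.75 to -0.74), whereas Angptl4, an inhibitor of lipoprotein lipase, widened in favour of coronary cells (1.97 to 4.13). The ligand gene Vegfc (0.88 to 1.84) and the co-receptor gene Nrp1 (-0.83 to 0.11) moved towards coronary cells. Among guidance genes, the semaphorin receptor gene Plxnd1 reversed towards coronary cells (-0.59 to 0.58) and the ligand gene Sema3a widened in favour of endocardial cells (-1.79 to -3.37). Ece1, the enzyme that activates endothelin, widened on the endocardial side (-1.55 to -2.72), as Edn1 moved there.

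The coronary excess that vanished by E17 included genes of epithelial adhesion and of mesenchyme. Of 17 genes of valves and mesenchymal transition 6 changed towards endocardial and 3 towards coronary cells, with a median E13 difference of 2.83 and an E17 one of -0.12. The counts were 11 towards endocardial cells without E13 coronary replicate 1 and 1 towards coronary cells without E17 coronary replicate 1. Itgb4, the laminin-binding integrin of hemidesmosomes, measured 4.21, 2.98, 3.65 and 4.46 against 93.4, 84.7, 62.6 and 88.5 CPM in E13 endocardial and coronary libraries and 16.4 and 13.6 against 12.4 and 13.2 CPM at E17. The E13 gap was closed from both sides (change -4.65 ± 0.25 with an edgeR adjusted p of 2.08e-07), and the groups lay side by side at E17. Its matrix partner gene Lama5 (1.38 to -0.26) and the laminin receptor gene Itga3 (2.72 to 0.01) followed the same course. Dsp, the desmosome protein desmoplakin, went further and reversed, from 25.9, 19.7, 25.6 and 23.8 against 68.8, 119.7, 126 and 94.3 CPM at E13 to 41.4 and 40.9 against 11.9 and 9.16 CPM at E17 (change -4.08 ± 0.32 with an edgeR adjusted p of 2.47e-06). Prss35, which encodes a protease-like protein, measured 26.6, 73.5, 102 and 67.5 CPM in coronary libraries at E13 and 16.3 and 8.15 CPM in E17 ones (change -4.71 ± 0.66 with an edgeR adjusted p of 0.000198). Erbb3, a neuregulin receptor also expressed by neural crest and glia, measured 6.76, 19.6, 26.98 and 18.6 CPM in coronary libraries at E13 and under 0.4 CPM in the other 8 (change -5.49 ± 1.35 with an edgeR adjusted p of 0.00834, and of 0.0805 without E17 endocardial replicate 1). Cthrc1, Sema3c and Col1a2, genes of mesenchyme and outflow tissue, vanished too, with E17 differences of -0.29, 0.20 and 0.42, and Col1a2 lost its call without either E17 endocardial library or without E17 coronary replicate 2 (edgeR adjusted p from 0.0511 to 0.104). In Dsp, Prss35, Erbb3, Cthrc1 and Col1a2 E13 coronary replicate 1 was lowest and replicate 3 highest, as in the fibroblast list and in the glial and neural crest list, which summed to 15, 36.3, 48.4 and 35.8 CPM in those libraries and to 8.92 and 5.15 CPM in E17 coronary ones. Itgb4 did not follow that order. The gap of at least 2-fold between replicates 3 and 1 was present in 28 of 99 vanished coronary genes that reached 10 CPM in E13 coronary cells. Leaving out replicate 1 or 3 gave 217 and 179 vanished coronary genes in place of 189, and the part of other cells was not tested.

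Beyond interferon genes, the endocardial excess also vanished for Sult1a1, Ggt5 and Slc26a10, named for the size of their change. Sult1a1, a sulfotransferase of phenols, measured 28.3, 25.5, 31.2 and 29.9 against 3.84, 2.81, 4.79 and 3.95 CPM in E13 endocardial and coronary libraries, and 61.4 and 76.4 against 68.5 and 71.5 CPM at E17. Coronary libraries were lower at E13 and within the endocardial range at E17 (change 2.93 ± 0.20 with an edgeR adjusted p of 9.95e-07). Ggt5, an enzyme that cleaves glutathione conjugates such as leukotriene C4, likewise rose in coronary cells (-2.82 to -0.14, change 2.69 ± 0.28 with an edgeR adjusted p of 1.84e-05). Slc26a10, of an anion transporter family, went from -2.37 to 0.26.

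Proliferation genes that passed moved towards coronary cells and glycolysis genes that passed towards endocardial cells. Over all genes tested the change passed in 32.7%, with 16.2% towards coronary and 16.5% towards endocardial cells. In the main fit the glycolysis and fatty acid oxidation lists lay near that share of calls in either direction. Of 30 cell cycle genes 16 changed towards coronary cells (22 with the batch block) and 14 did not pass; the count was 10 without E17 endocardial replicate 1 and 29 without replicate 2. The list had median stage changes of -0.12 in coronary and -0.68 in endocardial libraries. Mki67, the proliferation marker Ki-67, measured 299.7, 268, 228 and 253 against 440.3, 416, 454 and 422 CPM in E13 endocardial and coronary libraries and 138 and 181 against 609.9 and 560.1 CPM at E17. It was higher in coronary cells at both stages, and fell in endocardial cells (change 1.16 ± 0.16 with an edgeR adjusted p of 0.000166). The replication helicase gene Mcm6 changed by 0.52 ± 0.10 and the G1/S factor gene E2f1 by 0.85 ± 0.16. Of 18 glycolysis genes 6 changed towards endocardial cells, against 12 with the batch block, 2 without E17 endocardial replicate 2 and 3 without E17 coronary replicate 1. Slc16a3, the lactate exporter, narrowed from 3.81 to 2.15 and the enzyme gene Pgam1 lost its coronary excess (1.06 to 0.14). Eno1 narrowed from 1.71 to 0.89, with edgeR adjusted p-values of 0.063 without E17 endocardial replicate 2 and 0.0518 without E17 coronary replicate 1. Pkm, pyruvate kinase, had a change of -0.33 ± 0.18 with an edgeR adjusted p of 0.191, and of 0.0408 with the batch block. Of 18 fatty acid oxidation genes 6 changed towards coronary cells, by at most 0.82 (Acaa2, a thiolase).

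Imprinted growth genes were mostly drawn to the endocardial side, 10 of 14 against 3. H19, a growth-restraining noncoding RNA, had group means of 39110, 20430, 45740 and 8638 CPM for endocardial and coronary cells at E13 and then at E17 and widened from -0.94 to -2.40. Igf2, the fetal growth factor gene beside it, widened from -0.79 to -1.90, and Grb10, an adaptor that dampens insulin signalling, appeared on the coronary side (0.35 to 1.13). Of 22 BMP and TGF-beta genes 12 changed towards endocardial and 4 towards coronary cells, and the last count was 1 without E17 endocardial replicate 1 or E17 coronary replicate 2, and 2 without any 1 of E13 endocardial replicates 1, 3 and 4, E13 coronary replicate 2 or E17 endocardial replicate 2. Tgfb2, the ligand of valve formation, appeared on the endocardial side (0.28 to -2.60, change -2.89 ± 0.34 with an edgeR adjusted p of 4.86e-05), as did the latency protein gene Ltbp1 (-0.29 to -2.46). Bmp4 narrowed from 3.83 to 0.73. The BMP target genes Id1 and Id2 moved in opposite directions, Id1 towards coronary (0.32 to 1.48) and Id2 towards endocardial cells (-1.31 to -2.89). Of 19 immediate early genes 5 changed towards endocardial cells and 1, Fosl1 (1.40), towards coronary cells, against 10 and 1 with the batch block. In the main fit this list lay near the 32.7% of all tested genes that changed in either direction. Jun measured 658, 722, 455 and 467 against 594, 715, 492 and 610 CPM at E13, overlapping, and 1736 and 1531 against 834 and 688 CPM at E17 (change -1.17 ± 0.27 with an edgeR adjusted p of 0.00547). Immediate early genes respond to tissue dissociation. In E13 endocardial replicates 1 to 4 their list summed to 4210, 4980, 2210 and 2520 CPM, higher in replicates 1 and 2 than in replicates 3 and 4. It summed to 3340 to 4950 CPM in E13 coronary libraries. At E17 it was higher in both populations, at 9640 and 10600 CPM in endocardial and 6620 and 6710 CPM in coronary libraries. The part of handling in this result was not tested.

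**Figure D5:**
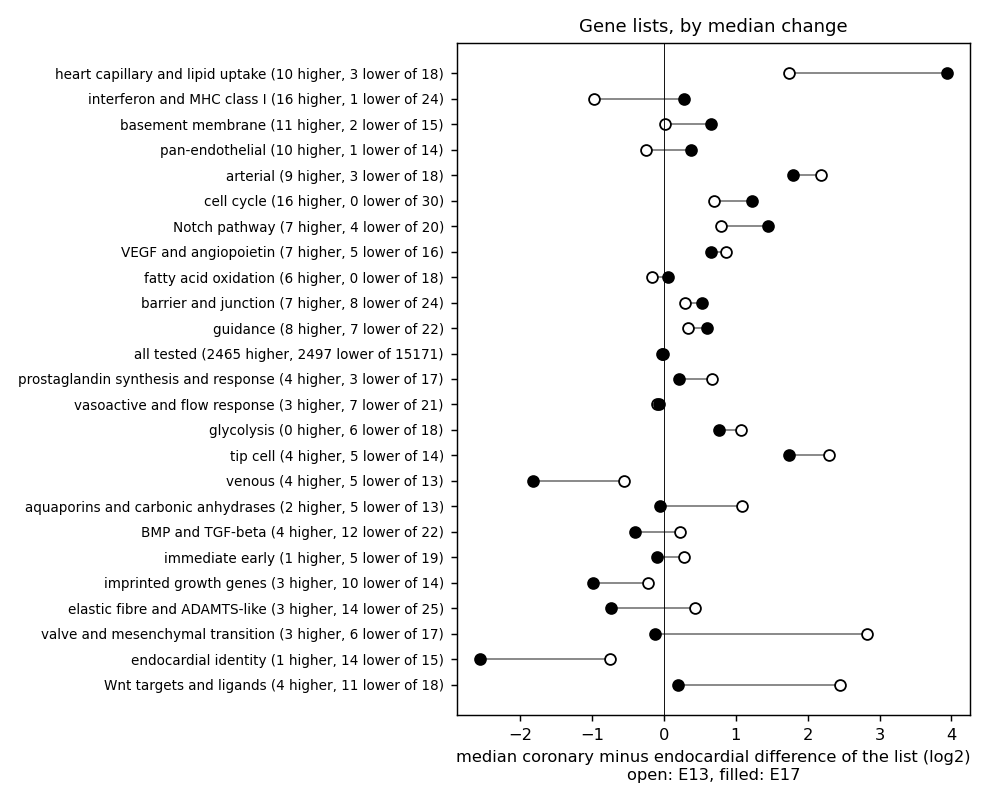
Open circles are the median coronary minus endocardial log2 fold change of each gene list at E13 and filled circles the same at E17, ordered by the median of the changes of the list's genes (which need not equal the difference of the 2 medians), with counts of genes whose change passed and without the lists of other cell types. Of the lists plotted, Wnt and endocardial identity lie at the bottom, with 11 of 18 and 14 of 15 genes changed towards endocardial cells, and the interferon list crosses 0.

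The markers of other cell types changed in part. Over all genes tested the change passed in 32.7%, a share that the cardiomyocyte, mural and leukocyte lists did not exceed. The epicardial list lay near it. Of 17 cardiomyocyte genes 1, Tnni1 (-1.15), changed, and 2 without E13 coronary replicate 2. Of 12 mural genes 3 changed towards coronary cells, among them Abcc9, a potassium channel subunit (2.24 to 3.78), and the receptor gene Notch3 (0.00 to 2.34). Without E13 coronary replicate 1 another 3 changed towards endocardial cells, and without E17 endocardial or E17 coronary replicate 1 the coronary count was 2. Summed mural markers were 390, 625, 777 and 552 CPM in E13 coronary and 1130 and 865 CPM in E17 coronary libraries, and 181 and 179 CPM in E17 endocardial ones, and their part in the results on coronary cells was not tested. Of 9 epicardial genes 1 changed towards coronary and 2 towards endocardial cells, the latter 3 without E13 coronary replicate 2 and 1 without either E17 endocardial library or E17 coronary replicate 2. Of 9 leukocyte genes 2 changed towards endocardial cells. Platelet (2 of 5) and glial and neural crest genes (3 of 5 towards endocardial, 1 towards coronary cells) held that number in few of the fits without 1 library, which gave 1 to 2 platelet and 0 to 3 glial genes towards endocardial cells (0 without E17 endocardial replicate 1). Of 8 lymphatic genes 3 changed towards endocardial cells and 1 towards coronary cells. Prox1 and Lyve1, which mark lymphatic endothelium but also parts of the endocardium, moved to the endocardial side (-0.16 to -3.25 and -1.54 to -4.80), with Lyve1 at 111 and 178 CPM in E17 endocardial libraries.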

How the data were processed

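RNA of sorted endothelial cells from 12 libraries (4, 4, 2 and 2 per group) was sequenced on a HiSeq 2500 as single reads of poly-A RNA, per the labels' protocols.
The authors deposited 1 table of RSEM expected counts per gene; CASAVA 1.8.2, cutadapt 1.3, RSEM 1.2.3 and the build GRCm38 are named in the submitters' processing notes. RSEM divides reads between similar genes, and neither strand setting nor read filters are given in the sources used here. Of the 41214 IDs, 40254 were matched to a symbol. Counts were rounded to whole numbers (18.3% of values were not whole).

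Genes were filtered with edgeR's filterByExpr (minimum count 10, minimum total 15), scaled by TMM and fitted in edgeR 4.0.16 (R 4.3.3) by quasi-likelihood with 4 group means over 12 libraries and 8 residual degrees of freedom, the group means sharing 1 estimate of spread. The 5 contrasts were adjusted by Benjamini-Hochberg over the 15171 genes tested, with calls under 0.05. Standard errors are the log2 change divided by the square root of F. The coefficients were checked on simulated counts that held no batch effect or pairing. That check cannot give the error rate for libraries that deviate together by batch. Replicates differed by 4.39 to 39.3 in chi-square per gene, so none was treated as a repeat. Libraries of the same batch label deviated together (correlations of 0.377, 0.682, 0.367 and 0.478 at E13 and 0.38 at E17 over 9481 genes). E13 endocardial replicate 3 correlated more with coronary replicate 4, of another label (0.439). The other E13 pairs across labels lay between -0.508 and 0.143. At E17, with 2 libraries per group, all pairs share 1 size of correlation and only its sign follows the labels. The labels were taken to pair the libraries, which these values do not settle for each batch, and a fit with the batch as a block was the alternative. DESeq2 1.42.0 was another.

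Genes named are the 4 given (Eln, Ptgs2, Papln, Aqp7), the genes of the sort, the 6 largest changes per class and side that passed in both fits with at least 10 CPM and populations that did not overlap at the stage or stages that hold the difference, and up to 4 genes per list with the smallest adjusted p plus the one with the highest CPM averaged over the 4 groups that did not pass. Not all of these are named, and the text leaves some out. The genes Abcc4, Axin2, Cldn5, Col1a1, Dll4, Efemp1, Fbln2, Fn1, Fzd4, Gata4, Gata5, Gata6, Gpihbp1, H2-T23, Hapln1, Hey1, Id1, Id2, Ifi35, Ifih1, Irgm1, Isg15, Itga3, Jag1, Jag2, Lef1, Mfap2, Mgll, Nfatc1, Nid2, Notum, Nrg1, Pparg, Psmb8, Sema3c, Slc27a3, Slfn5, Tap1, Tbx20, Tbxa2r, Tcf15, Tek, Tie1, Vegfc and Wnt4 were named after their values were seen. Ifitm1, Gbp2, Igtp and Irgm2 were also named after their values were seen, and the counts and orders over named genes leave them out. The classes, members and gene lists were chosen with earlier results of these data known. Promoter windows are RefSeq's, and motif matches were counted by script.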

Additional observations from a re-analysis of the deposited data

Results flagged for a closer look

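The change of the coronary minus endocardial difference between stages is itself a test of a difference between groups, so its results stand here as such. It passed in 2465 genes towards coronary and in 2497 genes towards endocardial cells. By side, 60 genes reversed towards coronary and 225 towards endocardial cells, an excess appeared in 249 coronary and 379 endocardial genes, and it vanished in 189 coronary and 77 endocardial genes. The change was -6.11 for Eln, -6.10 for Ptgs2, 6.10 for Papln and 8.49 for Aqp7 on the log2 scale.

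In 16 of 280 groups of 4 E13 libraries, for the genes named, 1 library lay far from the other 3 by Dixon's test, and chance gives about 1 in 20 groups. E13 coronary replicate 1 was that library in 8 of the 16. It was high for Hey1 (83.2 CPM against 56.3 to 59.6), Ifih1 (2.60 against 1.73 to 1.81), Irf7 (1.24 against 0.853 to 0.908), Nrp1 (480 against 393 to 402), Ptges3 (160 against 143 to 146) and Tap1 (2.38 against 2.13 to 2.17). It was low for Axin2 (6.98 CPM against 12.9 to 13.8) and Ptgis (55.0 against 74.9 to 77.8). Timp4 was high in E13 coronary replicate 2 (0.476 CPM against 0.101 to 0.162). Among E13 endocardial libraries, Ptgs2 (1.65 CPM) and Slit3 (8.94) were high in replicate 1, Gbp7 was low in replicate 2 (19.5) and Vcam1 in replicate 3 (11.6). Fbln5 (2.26 CPM), Psmb8 (0.238) and Tbx20 (30.9) were low in replicate 4.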

How the results depend on the processing

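Of the 135 named genes whose change passed, 130 kept their direction and stayed past the threshold under every alternative that tested them, and Pecam1, Erbb3, Col1a2, Eno1 and Fn1 lost the call without 1 library, as given beside each. Leaving out 1 library gave 1769 to 2579 genes changed towards coronary and 1799 to 2764 towards endocardial cells. It gave 2928 to 5211 genes for the stage change of endocardial cells, 422 to 711 for widened on the coronary side, 73 to 203 for narrowed on the coronary and 49 to 123 on the endocardial side. The stage change of endocardial cells numbered 2928 without E17 endocardial replicate 1 and 3178 without replicate 2, and the widened coronary count was 422 without replicate 1. The narrowed counts on the coronary and endocardial side were 75 and 49 without E17 endocardial replicate 1, 73 and 60 without its replicate 2, 80 and 65 without E17 coronary replicate 1, and 82 and 58 without its replicate 2.

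With the batch as a replicate block, which pairs the libraries of 1 batch label, 4963 genes passed, 4575 of them shared. Among named genes the block changed the calls of Emcn (adjusted p = 0.0243) and Pkm (0.0408) and no other, by edgeR. Genes named for the size of their change had to pass with the block. Others were named for a small adjusted p or after their values were seen. How well named genes kept their calls, under the block or any other alternative, thus follows in part from the choice and adds no support. Without a filter on low counts, 80 genes narrowed on the endocardial side. By the tests alone, 328 genes reversed towards coronary cells, 669 coronary and 622 endocardial excesses appeared, 598 and 557 vanished, and 31 and 27 met no definition, since that alternative drops the minimum sizes. With 0.25 in place of 0.5 in log2 as the small size, 122 coronary and 199 endocardial excesses appeared, and 106 and 38 vanished. Fabp4, which did not pass, had a change of -0.01 with at least 5 CPM asked for in 1 group, and lay between -0.26 and 0.39 when 1 library was left out, with a turned sign in 5 cases. For these the cause was not tested.

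The E17 groups hold 2 libraries each, so a fit without 1 of them leaves a lone library that is assumed to vary like the other groups. Counts over the gene lists under each alternative were added after seeing the data. Low counts limit the E13 values of Aqp7, Timp4, Psmb8 and Selp, the E13 coronary values of Irf7 and the endocardial values of Car4. Stage cannot be told apart from genotype, tamoxifen, gate or batch in any of these fits.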
